A study of Rattus norvegicus with 23 samples.

Results

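Schwann cells and satellite glia are the support cells of the dorsal root ganglion (DRG), and 8 of their genes were followed here for 296 h after the sciatic nerve was cut. The 8 were chosen by name, with earlier results of these data known: the myelin genes Mbp, Mal and Cnp, the myelinating Schwann cell genes Gjb1 and Prx, the glial transcription factor Sox10, and the satellite glia genes Fabp7 and Glul. Each has 1 probe, so that 8 of the 5088 probes on the array, and 8 of the 4153 genes it names, are described.

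The animals were Long-Evans rats of postnatal day 20 to 24. Their sciatic nerve was transected under isoflurane, and the L4 and L5 ganglia were taken 4, 8, 12, 18, 24, 48, 148 or 296 h later. Each of the 23 arrays set lesioned against intact RNA directly, with 3 arrays at each time and 2 at 296 h. One of the arrays at 296 h carries 296 in its title and 294 in its time label. No genotype is given for any group, and the labels do not say whether the intact ganglia came from the same animals as the lesioned ones. The labels name the material both as ganglia removed after surgery and as cultured DRG cells, and their labelling text speaks of cultures treated with cAMP. The treatment text describes only the transection, and the ratios are read as such here. The labels do not say whether arrays came from separate animals or pools. The p-values therefore measure only the spread between these arrays, which may be technical.

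Every value is a log2 ratio, taken as lesioned (Cy5) over intact (Cy3). No array exchanged the dyes, so that a dye effect of a probe adds to each lesion effect and cancels in a difference between times if it stayed the same. The ratios hold no levels, so the identity of the tissue could not be checked by its markers, and levels could not be compared between genes. The number of arrays limits the precision. A set of 6 arrays, named sparse below, lacked at least 200 probes and had a wide spread: replicates 2 and 3 at 48 h, all of 148 h and replicate 2 at 296 h. They held 2063 to 4353 probes with an SD of the log2 ratio of 1.22 to 1.61, against 4945 to 5011 probes and 0.506 to 0.913 on the other 17 arrays. All 253 pairs of arrays correlated positively over probes, from 0.0278 to 0.519. Each array was given a weight in limma, lower where its ratios departed more from the mean of its time, and both arrays at 296 h received the same weight, 0.398, although only 1 of them is sparse. The means below are weighted and given with their SE, and a gene is said to rise or fall only where its adjusted p over all probes tested was below 0.05.

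Myelin is the membrane that a Schwann cell wraps around an axon. It is held together by a few abundant proteins and is built under the control of Sox10 and, at the onset of myelination, Egr2. When an axon is cut, Schwann cells of the nerve beyond the cut are known to lose their myelin genes and to turn to a repair state. The cell bodies in the ganglion, in contrast, lie upstream of the cut, each within an envelope of satellite glia, which take up and recycle glutamate and are coupled by gap junctions.

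Mbp, myelin basic protein, which holds the inner faces of the myelin membrane together, was the member that differed most clearly between early and late times. Its log2 ratios at 4 h were -0.04, 0.18 and -0.09, at 8 h 0.12, -0.04 and 0.28, and at 12 h -0.43, 0.37 and 0.31. At 18 h the arrays gave 0.07, -0.03 and -0.11, and at 24 h -0.22, 0.16 and -0.39. Up to 24 h the ratios thus lay on both sides of 0 at every time. From 48 h on every array lay below 0: -0.17, -0.95 and -0.30 at 48 h, -1.20, -0.66 and -0.31 at 148 h, and -1.37 and -1.35 at 296 h. The 8 late arrays ran from -1.37 to -0.17 with a median of -0.81, and the 9 early arrays from -0.43 to 0.37 with a median of 0.12, so that both ranges overlapped. No single time passed the test. The time means were -0.45 ± 0.24 at 48 h (adjusted p = 0.302), -0.63 ± 0.28 at 148 h (adjusted p = 0.161) and -1.36 ± 0.34 at 296 h (adjusted p = 0.129). At 296 h both arrays agreed closely, and with equal weights for all arrays the value there passed (adjusted p = 0.00304), as did that at 148 h (-0.72, adjusted p = 0.0089). Equal weights do not weight the sparse arrays down. Over all alternatives tried, up to 264 probes were called at 296 h (8 as reported) and up to 931 at 148 h (343).

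**Figure D1:**
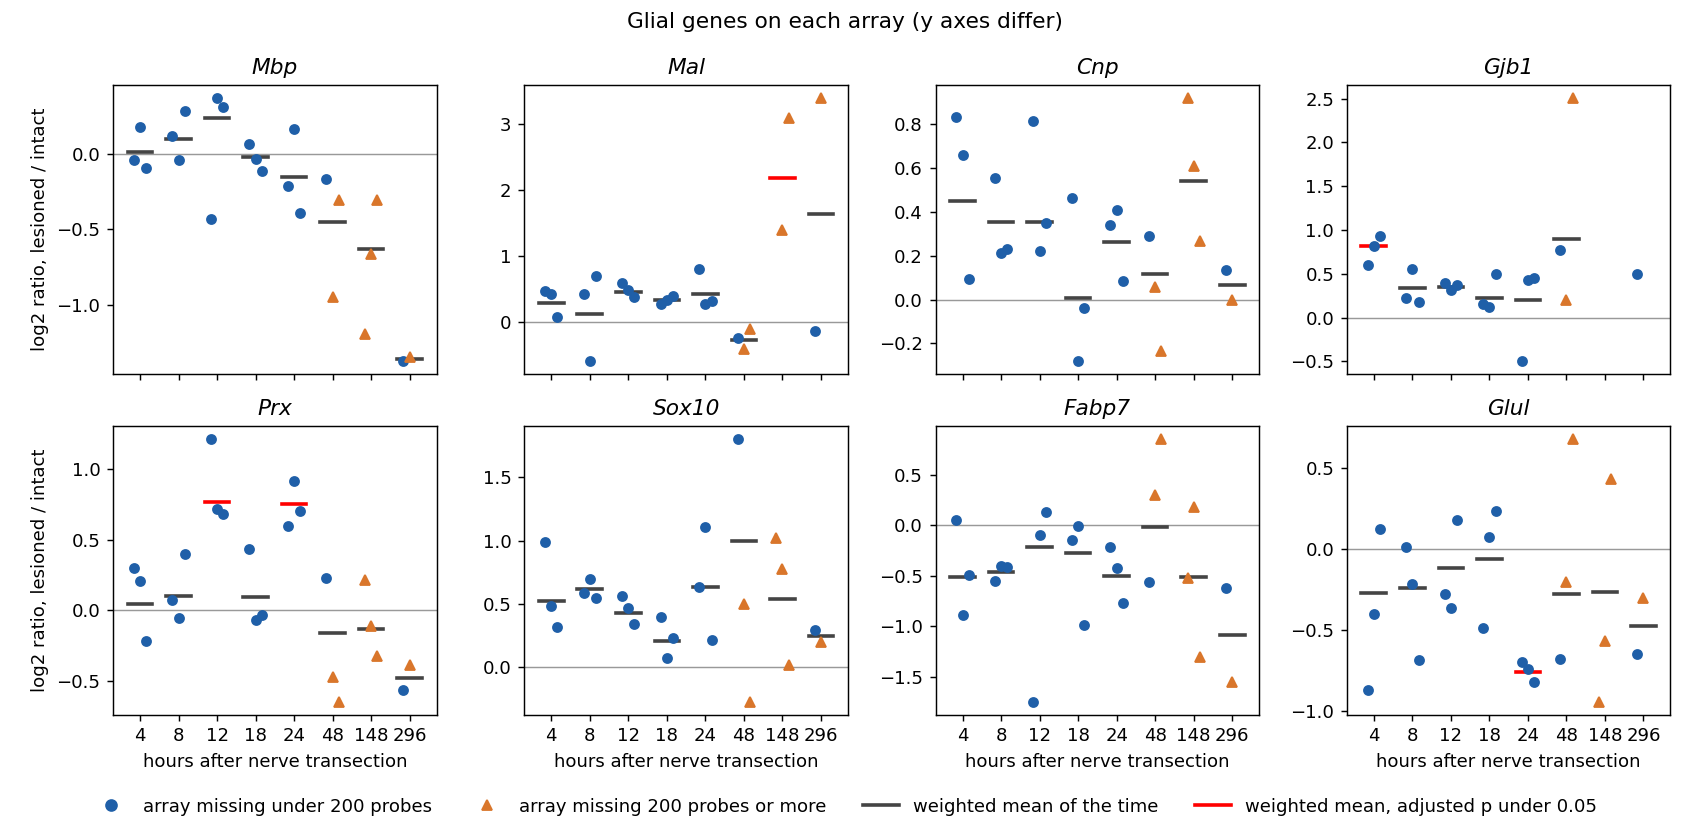
Log2 ratio of lesioned over intact ganglia (vertical axis) against time after nerve transection (horizontal axis) for the 8 genes, 1 panel each. Points are single arrays, circles for the 17 arrays that hold nearly all probes and triangles for the 6 sparse ones, and bars are weighted time means, red where the adjusted p was below 0.05. Mbp lies below 0 on all 8 arrays from 48 h on, and Sox10 above 0 on 22 of 23.

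Mal, a proteolipid that carries lipids and proteins to the myelin membrane, was mostly above 0, on 17 of the 22 arrays that measured it. Its ratios were 0.48, 0.43 and 0.08 at 4 h, 0.42, -0.58 and 0.71 at 8 h, and 0.59, 0.50 and 0.39 at 12 h. They were 0.27, 0.34 and 0.40 at 18 h, 0.81, 0.28 and 0.33 at 24 h, and -0.24, -0.41 and -0.10 at 48 h. All 3 arrays at 48 h were thus below 0, and of the 15 before only replicate 2 at 8 h was. At 148 h only replicates 2 and 3 measured the probe, at 1.39 and 3.09, and at 296 h the arrays gave -0.13 and 3.40. The 3 highest values all came from sparse arrays, and the full array at 296 h lay near 0. Mal rose at 148 h, by 2.18 ± 0.59 (adjusted p = 0.0246), a 4.54-fold difference from 2 arrays. With every array scaled to an equal spread the value was 0.78 (adjusted p = 0.023). The weights were refitted there, and the arrays of 148 h received the highest of all, 6.44, 5.10 and 3.135. As reported they had 0.237, 0.526 and 0.458. Replicate 2 of 48 h and replicate 3 of 24 h were left at 0.0146 and 0.0649. A call kept under scaling, here or for other genes at 148 h below, is thus no test with these arrays weighted down.

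Cnp, the myelin enzyme that keeps cytoplasmic channels in the sheath open, was above 0 on 19 of 23 arrays. The early ratios were 0.83, 0.66 and 0.09 at 4 h, 0.56, 0.21 and 0.23 at 8 h, and 0.81, 0.22 and 0.35 at 12 h, so that all 9 lay above 0. Later ratios were 0.46, -0.28 and -0.04 at 18 h, 0.34, 0.41 and 0.09 at 24 h, and 0.29, 0.05 and -0.24 at 48 h. They were 0.92, 0.61 and 0.26 at 148 h and 0.13 and -0.0025 at 296 h. Time means lay between 0.01 and 0.54, and none passed the test. With equal weights, which do not weight the sparse arrays down, the value at 148 h passed (0.60, adjusted p = 0.0206). Over all alternatives up to 931 probes were called at that time (343 as reported).

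Cnp is the member whose promoter held both sequences looked for, ACAAAG, a core element bound by the Sox10 family, and GCGTGGG, the site of the Egr family, and it is printed for that. The sequence is that of RefSeq (assembly GRCr8, 250 bases before to 50 after the gene's start), on the plus strand at chr10:86011254-86011553, with both matches in capitals.

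Cnp: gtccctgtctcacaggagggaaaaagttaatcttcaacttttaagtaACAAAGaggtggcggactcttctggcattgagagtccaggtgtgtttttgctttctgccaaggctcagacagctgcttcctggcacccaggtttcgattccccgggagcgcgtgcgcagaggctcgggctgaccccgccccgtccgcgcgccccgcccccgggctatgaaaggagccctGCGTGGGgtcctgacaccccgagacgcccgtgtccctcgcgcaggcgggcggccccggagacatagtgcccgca

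The RefSeq table held a promoter for 7 of the 8 members, 9 promoters in all, and Sox10 is named only. Of the 9, 2 held ACAAAG on either strand (those of Cnp and, in the minus direction, 1 of Mbp), against 18.8% of all 33469 promoters of this length. GCGTGGG was found in 1 of the 9, against 4.33% of all. The search covered both strands, and the motifs do not overlap each other. A match is a description of letters and not of binding.

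Gjb1 encodes connexin 32, which forms gap junctions between the layers of the myelin sheath. It was above 0 on 18 of the 19 arrays that measured it. At 4 h the arrays gave 0.60, 0.81 and 0.93, the highest set of the early times, at 8 h 0.22, 0.55 and 0.18, and at 12 h 0.39, 0.31 and 0.38. They gave 0.15, 0.13 and 0.50 at 18 h, and -0.49, 0.42 and 0.46 at 24 h. At 48 h the values were 0.77, 0.20 and 2.51, of which the last came from a sparse array. No array measured Gjb1 at 148 h and 1 did at 296 h, at 0.50. Gjb1 rose at 4 h, by 0.82 ± 0.20 (adjusted p = 0.0444), or 1.76-fold. It was the only member of 8 called at 4 h, where 2.63% of all probes were. The call was narrow: with equal weights the adjusted p was 0.36, and it was lost without any 1 of the 3 arrays of 4 h. The mean at 48 h was 0.90 ± 0.32 (adjusted p = 0.12), and with equal weights it passed (1.16, adjusted p = 0.0201). That setting does not weight the sparse arrays down, and over all alternatives up to 706 probes were called at 48 h (268 as reported).

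Prx, periaxin, a scaffold that links the outer Schwann cell membrane to the matrix around it, rose at 12 h and at 24 h but not at 18 h between them. At 4 h its ratios were 0.30, 0.21 and -0.21, and at 8 h 0.07, -0.06 and 0.40. At 12 h they were 1.21, 0.72 and 0.68, all above the highest ratio of the earlier times. At 18 h they were back at 0.43, -0.07 and -0.03, and at 24 h they were 0.60, 0.92 and 0.71. Late ratios were 0.23, -0.47 and -0.65 at 48 h, 0.22, -0.11 and -0.33 at 148 h, and -0.57 and -0.39 at 296 h. The mean was 0.77 ± 0.13 at 12 h (adjusted p = 0.00393, 1.70-fold) and 0.75 ± 0.16 at 24 h (adjusted p = 0.0111, 1.69-fold), against 0.10 ± 0.15 at 18 h (adjusted p = 0.926). No single array was needed for the call at 12 h, though with equal weights it was missed (0.87, adjusted p = 0.0816). The call at 24 h was lost without replicate 2 of that time (0.66, adjusted p = 0.0783) or replicate 3 (0.78, adjusted p = 0.0706). Prx was 1 of 8 members called at 12 h, where 2.37% of all probes were, and 1 of 2 called at 24 h, where 5.13% were. In the test for any change between times it was the only member of 7 called (F = 6.23, adjusted p = 0.0454), against 2.02% of 2327 probes. That call was kept in 9 of 37 alternatives.

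At 12 h other myelin genes rose beside Prx. They were chosen for naming after their values were seen, from a list of 26 genes of compact myelin and myelinating Schwann cells, of which 15 were on the array with 17 probes. Pmp22, a membrane protein of compact peripheral myelin, gave 0.42, 0.64 and 0.80, with a mean of 0.68 (adjusted p = 0.00516). Pllp, plasmolipin, another myelin proteolipid, gave 0.46, 0.67 and 0.92, with a mean of 0.75 (adjusted p = 0.00572). Ugt8, the enzyme that makes galactosylceramide, the main glycolipid of myelin, gave 1.34, 0.56 and 0.67, with a mean of 0.71 (adjusted p = 0.00958). All 9 of these ratios, as those of Prx, lay above 0. In all, 4 of the 17 probes, Prx among them, rose and none fell at 12 h, where 2.37% of all probes were called. The median over the list was 0.25 against 0.02 over all probes. The calls of Pmp22, Pllp and Ugt8 were lost without replicate 2 of 12 h (adjusted p = 0.0578, 0.0532 and 0.0515) or without replicate 3 (adjusted p = 0.124, 0.168 and 0.0925). With equal weights none of the 4 passed.

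**Figure D2:**
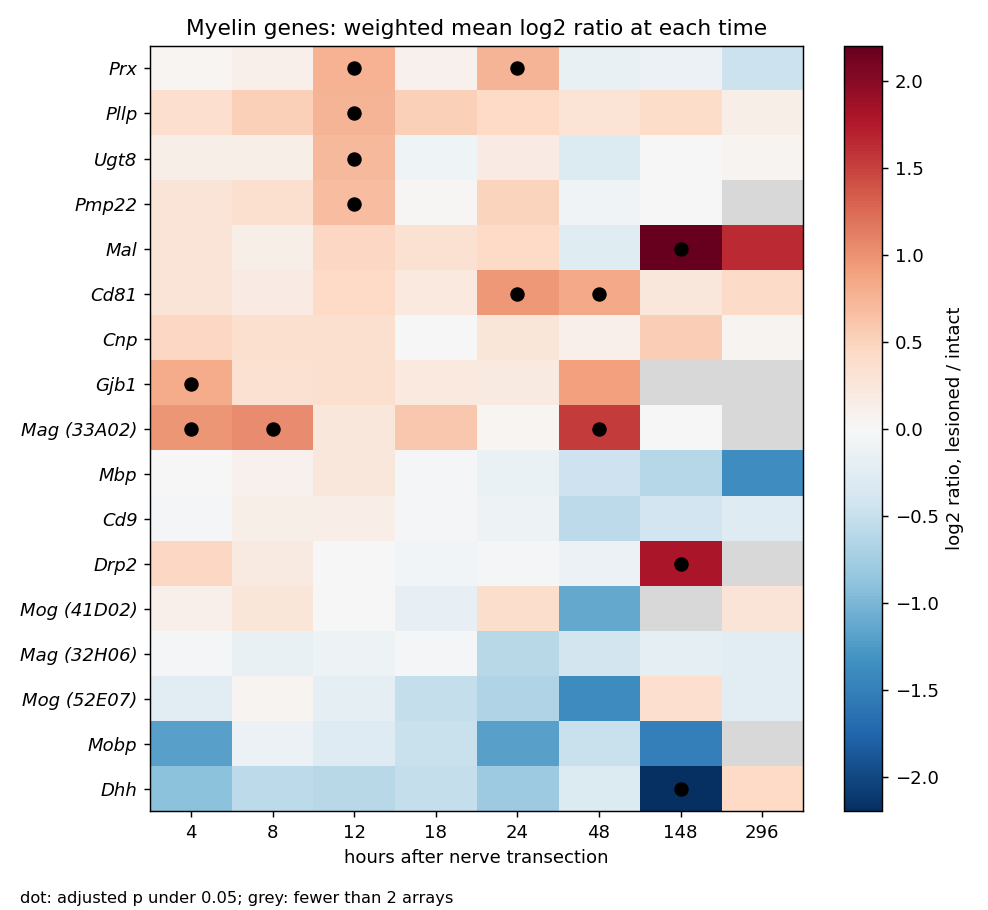
Weighted mean log2 ratio of lesioned over intact ganglia (colour) for the 17 probes of the myelin list (rows) at the 8 times (columns). Dots mark an adjusted p below 0.05, and grey cells had fewer than 2 arrays. At 12 h 4 probes carry a dot, all of them above 0, and at 148 h Dhh carries one below 0.

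Prx and Pmp22 are shown by their promoters because both rose at 12 h and, of all genes, Pmp22 followed Prx most closely over the arrays. Both sequences are from RefSeq (GRCr8, plus strand), at chr1:91914171-91914470 for Prx and chr10:48294682-48294981 for Pmp22. Neither held ACAAAG or GCGTGGG, nor did those of Pllp and Ugt8, so that no letters are in capitals.

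Prx: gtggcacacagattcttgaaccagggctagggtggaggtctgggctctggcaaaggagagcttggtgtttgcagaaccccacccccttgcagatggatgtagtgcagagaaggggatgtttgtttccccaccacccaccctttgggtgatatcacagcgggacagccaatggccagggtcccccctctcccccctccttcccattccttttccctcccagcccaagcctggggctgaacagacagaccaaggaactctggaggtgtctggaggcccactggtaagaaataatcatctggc
Pmp22: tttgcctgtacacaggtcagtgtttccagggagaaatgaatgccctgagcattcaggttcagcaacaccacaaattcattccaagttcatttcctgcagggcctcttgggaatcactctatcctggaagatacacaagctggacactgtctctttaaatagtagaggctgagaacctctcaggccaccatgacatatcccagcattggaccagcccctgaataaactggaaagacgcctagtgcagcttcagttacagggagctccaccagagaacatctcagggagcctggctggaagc

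At other times the myelin list had few calls. Mag, the myelin-associated glycoprotein, which inhibits the growth of many mature axons, rose on 1 of its 2 probes at 4 h (0.97, adjusted p = 0.0314), 8 h (1.05, adjusted p = 0.0306) and 48 h (1.54, adjusted p = 0.0192). Its other probe gave -0.05, -0.17 and -0.41 at these times and was not called, so that the probes disagree. The call at 48 h was lost without replicate 1 (0.92, adjusted p = 0.283), and that at 4 h without any 1 of its arrays. At 8 h that probe was on too few arrays for such an omission to be tested. Its value there ran from 0.41 to 2.63 over 32 alternatives, and 26 of them called it. Cd81, a tetraspanin of many cell types, rose at 24 h (0.96, adjusted p = 0.00155) and 48 h (0.83, adjusted p = 0.0394). Without replicate 3 of 24 h the first was 0.77 (adjusted p = 0.0504), and without replicate 1 or 2 of 48 h the second was lost (adjusted p = 0.215 and 0.177). At 148 h, where 10.8% of all probes were called, 3 of 15 list probes were. Besides Mal, Drp2, a partner of periaxin in the Schwann cell membrane, rose by 1.80 (adjusted p = 0.00468) on the 2 arrays that measured it, at 1.49 and 2.16. With arrays scaled to an equal spread it was 0.65 (adjusted p = 0.0288). Dhh, the signal by which Schwann cells direct the sheath around the nerve, fell by 2.19 (adjusted p = 0.0168), with arrays at -1.51, -3.02 and -1.58. Without the second of these it was -1.56 (adjusted p = 0.228), and with that scaling -0.59 (adjusted p = 0.058). All arrays at 148 h were sparse. The list had no call at 18 h, where 1.32% of all probes were called, nor at 296 h.

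Sox10, the transcription factor that all peripheral glia need for their identity, had the same sign on nearly every array, though its size varied widely. Its ratios were 0.99, 0.48 and 0.32 at 4 h, 0.58, 0.69 and 0.55 at 8 h, and 0.56, 0.47 and 0.34 at 12 h. They were 0.40, 0.07 and 0.23 at 18 h, 0.63, 1.10 and 0.21 at 24 h, and 1.80, 0.49 and -0.27 at 48 h. The last arrays gave 1.02, 0.78 and 0.02 at 148 h and 0.29 and 0.20 at 296 h. Only 1 of 23 arrays, replicate 3 at 48 h, lay below 0, and at that time the values ranged from -0.27 to 1.80. No single time was called. The lowest adjusted p values were 0.0689 at 48 h (0.99 ± 0.31), 0.0797 at 8 h (0.61 ± 0.18) and 0.0833 at 24 h (0.63 ± 0.20). With 1 weight for each array class, Sox10 at 48 h was 1.26 (adjusted p = 0.00942), and with the class as a block it was 1.01 (adjusted p = 0.038). Replicate 1 (1.80) was the only full array of 48 h, with a class weight of 1.45 against 0.347 for the others. The unweighted mean at 48 h was 0.67 with an SD of 1.05.

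Among 21 genes of the Schwann cell lineage, of which 14 were on the array with 16 probes, the calls at single times were few and all downward. At 8 h, where 1.96% of all probes were called, 2 fell: Notch1, a receptor that holds Schwann cells immature (-0.68, adjusted p = 0.0303), and its target Hes1 (-0.93, adjusted p = 0.0418). Both were lost without any 1 of the arrays of 8 h. At 148 h 2 of 9 fell. Notch1 gave -1.83, -1.68 and -1.64 with a mean of -1.69 ± 0.32 (adjusted p = 0.00282). With arrays scaled to an equal spread it was -0.45 (adjusted p = 0.031). Erbb2, which with Erbb3 receives the axonal signal neuregulin, gave -2.21, -0.67 and -2.64 with a mean of -1.71 ± 0.43 (adjusted p = 0.0183), and was lost with that scaling (-0.44, adjusted p = 0.0613) and without replicate 1 (adjusted p = 0.0596) or 3 (adjusted p = 0.192). S100b, a calcium binding protein of glia, fell at 24 h on 1 probe (-0.78, adjusted p = 0.012), while its other probe gave 0.07. The call was lost without replicate 1 (adjusted p = 0.0721) or 3 of that time (adjusted p = 0.103).

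Fabp7, a fatty acid binding protein of satellite glia and immature Schwann cells, lay below 0 on 18 of 23 arrays. The ratios were 0.05, -0.89 and -0.49 at 4 h, -0.55, -0.40 and -0.41 at 8 h, and -1.74, -0.10 and 0.13 at 12 h. They were -0.14, -0.01 and -0.98 at 18 h, -0.21, -0.42 and -0.77 at 24 h, and -0.56, 0.30 and 0.85 at 48 h. At 148 h they were -0.53, 0.18 and -1.30, and at 296 h -0.62 and -1.55. The arrays of a time differed widely, and no time was called. Its relative Fabp5, which is found in many cell types, rose at 18 h (0.53, adjusted p = 0.03) and 24 h (0.56, adjusted p = 0.0149). It also rose at 48 h (1.03, adjusted p = 0.00358) and 148 h (0.73, adjusted p = 0.0351), and late against early (0.61 ± 0.14, adjusted p = 0.0112). The call late against early was lost without replicate 2 at 296 h (0.65).

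Glul, glutamine synthetase, by which satellite glia turn glutamate into glutamine, lay below 0 on 16 of 23 arrays. It gave -0.87, -0.40 and 0.12 at 4 h, 0.01, -0.21 and -0.69 at 8 h, -0.28, -0.36 and 0.18 at 12 h, and -0.49, 0.08 and 0.23 at 18 h. At 24 h the 3 arrays lay close together, at -0.70, -0.74 and -0.82. Afterwards they gave -0.68, -0.21 and 0.68 at 48 h, -0.94, -0.57 and 0.43 at 148 h, and -0.65 and -0.31 at 296 h. Glul fell at 24 h, by 0.76 ± 0.21 on the log2 scale (adjusted p = 0.044), or 1.70-fold. The call was lost without any 1 of the 3 arrays of 24 h (adjusted p = 0.124, 0.137 and 0.231) and with equal weights (adjusted p = 0.179). In the list of 12 measured genes of glutamate and glutamine handling, Got2, the mitochondrial aspartate aminotransferase, was the other call at 24 h. It gave -1.21, -0.48 and -1.45, with a mean of -1.05 ± 0.23 (adjusted p = 0.0134). That call was lost without replicate 1 (adjusted p = 0.0651) or 3 (adjusted p = 0.204). Among the connexins, which include those of satellite glia, Gja3 rose at 48 h (1.26, adjusted p = 0.0296). Gjb5 fell at 8 h (-0.84, adjusted p = 0.0306) and 24 h (-0.89, adjusted p = 0.0271), and its mean was below 0 at every time. Averaged over the times it was -0.57 (adjusted p = 0.00045), to which a dye effect of the probe would add. Gja1, which stands in the satellite glia list too, was not called at any time. The call of Gja3 was lost without replicate 1 (adjusted p = 0.0682) or 2 of 48 h (adjusted p = 0.186), and that of Gjb5 at 24 h without any 1 array of that time. In the list of satellite glia, 19 measured genes with 21 probes, Ptgds, which makes prostaglandin D, fell at 4 h (-1.57, adjusted p = 0.0235) and 12 h (-1.52, adjusted p = 0.00974). Each of those calls was lost without replicate 2 or 3 of its time. Vim, an intermediate filament that also stands in that list, rose at 12 h (0.48, adjusted p = 0.0239).

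At 48 h, where 5.99% of all probes were called, none of the 8 members was, and at 296 h, where 0.282% were called, none of 7 was.  Counted over all single times, the members had 5 calls: Gjb1, Prx at 12 and 24 h, Glul and Mal. That is 5 of 62 tests, where 3.63% of the 35557 tests over all probes were called. None of the 8 was called at 8 h (1.96% of all probes) or 18 h (1.32%).

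The mean of 48, 148 and 296 h was then set against that of 4, 8 and 12 h, a difference in which a constant dye effect cancels. An effect of array class does not cancel in it: all 9 early arrays were full and 6 of the 8 late ones sparse. Time and array class can thus hardly be told apart here or in the late against early values of other genes. Mbp was lower late, by 0.93 ± 0.18 on the log2 scale (95% interval of the difference -1.31 to -0.56, adjusted p = 0.00445), or 1.91-fold lower. It was the only member of 7 called, against 7.69% of the 2327 probes measured at all times, of which 5.16% were higher and 2.54% lower. The call was lost without replicate 2 at 296 h (-0.94) and with the array class as a block. On full arrays alone 148 h drops out, and the late mean rests on replicate 1 of 48 h and replicate 1 of 296 h. The value was then -0.89 and was not called, but with so few late arrays that test decides little for Mbp or for any other gene. Prx was next, at -0.56 ± 0.18 (95% interval -0.94 to -0.18, adjusted p = 0.0616). It passed with equal weights (-0.65, adjusted p = 0.00993), without replicate 3 at 4 h (-0.63, adjusted p = 0.0439) and without replicate 1 at 48 h (-0.68, adjusted p = 0.0301). Mal was at 0.89 ± 0.36 (95% interval 0.14 to 1.64, adjusted p = 0.134). On full arrays alone its sign turned, to -0.48, and without replicate 1 at 296 h it was 1.48 (adjusted p = 0.0084). The others could not be told from 0: the intervals were -0.56 to 0.27 for Cnp, -0.43 to 0.58 for Sox10, -0.83 to 0.54 for Fabp7 and -0.66 to 0.40 for Glul. The members' median was -0.14, against 0.04 over all probes. Gjb1 was not measured at all times and could not enter.

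**Figure D3:**
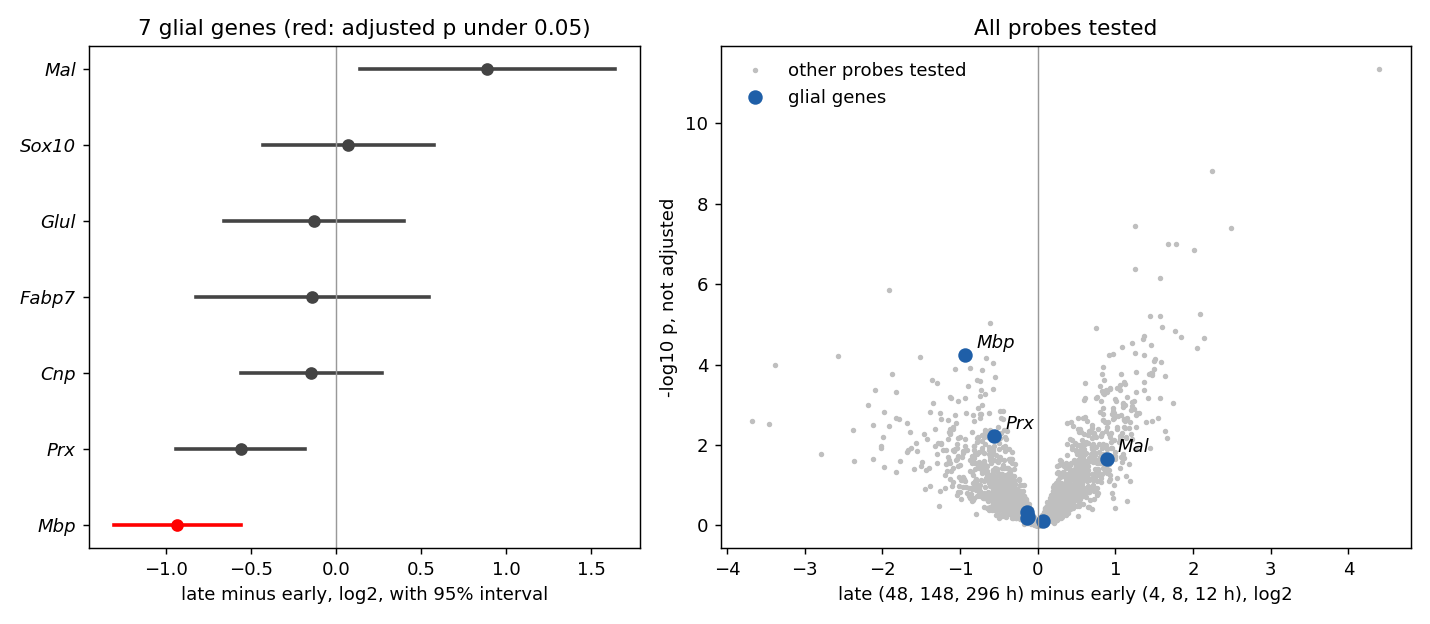
Left, late minus early difference in log2 ratio (horizontal axis) for the 7 members measured at all times, with 95% intervals and Mbp in red. Right, the same difference against -log10 p (vertical axis) for all 2327 probes. The interval of Mbp, -1.31 to -0.56, lies clear of 0, and that of Prx, -0.94 to -0.18, and of Mal, 0.14 to 1.64, do too although their adjusted p missed the threshold.

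Few probes of the other glial lists passed the test between early and late. Of 11 myelin list probes tested, Mbp alone was called, and the list's median was -0.27. None of the 8 lineage probes (median -0.20), 11 satellite glia probes (median 0.10), 6 glutamate handling probes or the 1 connexin probe was called. Several values were large all the same, chosen for naming after they were seen: Erbb2 was at -0.93 (adjusted p = 0.0676), as far from 0 as Mbp, and Entpd2, an enzyme of satellite glia that breaks down extracellular ATP, at 1.064 (adjusted p = 0.0677). Of 18 probes of immature and repair Schwann cells 1 rose: Ncam1, an adhesion molecule of immature and non-myelinating Schwann cells and of neurons, at 0.88 ± 0.21 (adjusted p = 0.0137). Its other probe gave 0.46 (adjusted p = 0.458), and without replicate 2 at 296 h the first was 0.71 (adjusted p = 0.188). At single times that list held Vim, an intermediate filament of glia and fibroblasts, whose mean was above 0 at every time, from 0.27 at 4 h to 0.84 at 148 h. Vim rose at 12 h (0.48, adjusted p = 0.0239), 24 h (0.59, adjusted p = 0.0176) and 148 h (0.84, adjusted p = 0.0267). The list also held the macrophage-attracting chemokine Ccl2, which rose on both of its probes at 8 h (1.60, adjusted p = 3.93e-05, and 0.99, adjusted p = 0.00161) and at 12 h. The first probe gave 1.26, 1.67 and 2.06 on the arrays of 8 h, and the call there did not need any single array. That probe was also called at 18 h (0.95, adjusted p = 0.0145), 24 h (0.79, adjusted p = 0.0296) and 48 h (1.15, adjusted p = 0.0342). The other was not called at these times, with 0.20 at 24 h (adjusted p = 0.668) and 0.42 at 48 h (adjusted p = 0.425). At 24 h Clu, a secreted chaperone, was lower (-0.57, adjusted p = 0.0264). The calls of Vim at 24 h and 148 h and of Ccl2 and Clu at 24 h were each lost without any 1 array of its time. Artn, a neurotrophic factor made by Schwann cells, fell at 48 h (-2.00, adjusted p = 0.0223; without replicate 1 -0.82, adjusted p = 0.507). Ngfr, the neurotrophin receptor that marks immature and repair Schwann cells and also many sensory neurons, fell at 148 h on 1 probe (-1.18, adjusted p = 0.0467), with -0.65 (adjusted p = 0.132) on the other. That call was lost without any 1 array of 148 h.

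Some markers of other cells of the ganglion differed late against early, and others did not. Of all 2327 probes tested, 5.16% were called higher and 2.54% lower. In whole ganglia fewer cells of a type and less RNA per cell cannot be told apart. Of 8 macrophage probes on the array only 2 could be tested late against early, and both were higher late. C1qb, a complement subunit, differed by 2.14 ± 0.37 (adjusted p = 0.00247) and Lyz2, lysozyme, by 1.77 ± 0.29 (adjusted p = 0.00195). Part of the difference of Lyz2 lay in low early values. Lyz2 fell at 4 h, to a ratio of 0.499 (adjusted p = 0.0273). Its log2 means at 8 and 12 h were -0.65 and -0.56, neither called. At 48 h it was at 0.37 (adjusted p = 0.64), and it rose at 148 h (2.03, adjusted p = 0.0136). C1qb was not called at 4, 8 or 12 h. The mean of C1qb and Lyz2 lay between -1.08 and 0.28 on the early arrays and between 0.61 and 3.17 on the 7 late arrays that gave it. Of 13 neuron probes 5 fell: Scn10a, the sodium channel of pain neurons, by 0.94, both probes of the neuropeptide Calca, by 0.89 and 0.45, Tac1, the substance P precursor, by 0.87, and 1 of 2 probes of Nefl, a neurofilament, by 0.55. The second Nefl probe gave -0.37 (adjusted p = 0.179). Of the 13, 12 lay below 0, Syt1 (-0.02) and Prph (-0.09) only just, and Stmn2 lay above it (0.33). The array means of the 13 neuron probes ran from -0.28 to 0.14 early and from -0.92 to -0.07 late. The calls of Scn10a, Tac1, Nefl and the first Calca probe were lost without replicate 2 at 296 h, as Mbp's was. Of the matrix probes 1 of 7 rose (Dcn, 0.81) and of the proliferation probes 1 of 6 (Pcna, 0.81), both likewise lost without that array. No probe of endothelium (2 tested), oligodendrocytes (2) or muscle (1) was called. Single times held calls in both directions. At 24 h the neuron genes parted, as Nefh, the heavy neurofilament, rose (1.18, adjusted p = 0.00187) and Uchl1, a ubiquitin hydrolase of neurons, fell (-1.23, adjusted p = 0.00285; without replicate 3 -0.94, adjusted p = 0.0749). Both were called in the same directions at 12 h, Nefh at 0.61 (adjusted p = 0.0473) and Uchl1 at -0.91 (adjusted p = 0.0075). Neither was called at 18 h (0.29 and -0.23), the time at which Prx was not called either. Uchl1 was also called in the test for any change between times (adjusted p = 0.043). Pdgfra, a receptor of fibroblasts, rose at 48 h (1.10, adjusted p = 0.0215; without replicate 1 0.79, adjusted p = 0.263). Ckm, the muscle creatine kinase, fell at 24 h (-0.92, adjusted p = 0.0463) and was lost without any 1 array of that time. Ccnd1, cyclin D1, was low at every time on 1 probe, from -4.17 to -3.21, while its other probe was not called at any. The part of these cells in the difference of Mbp was not tested.

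**Figure D4:**
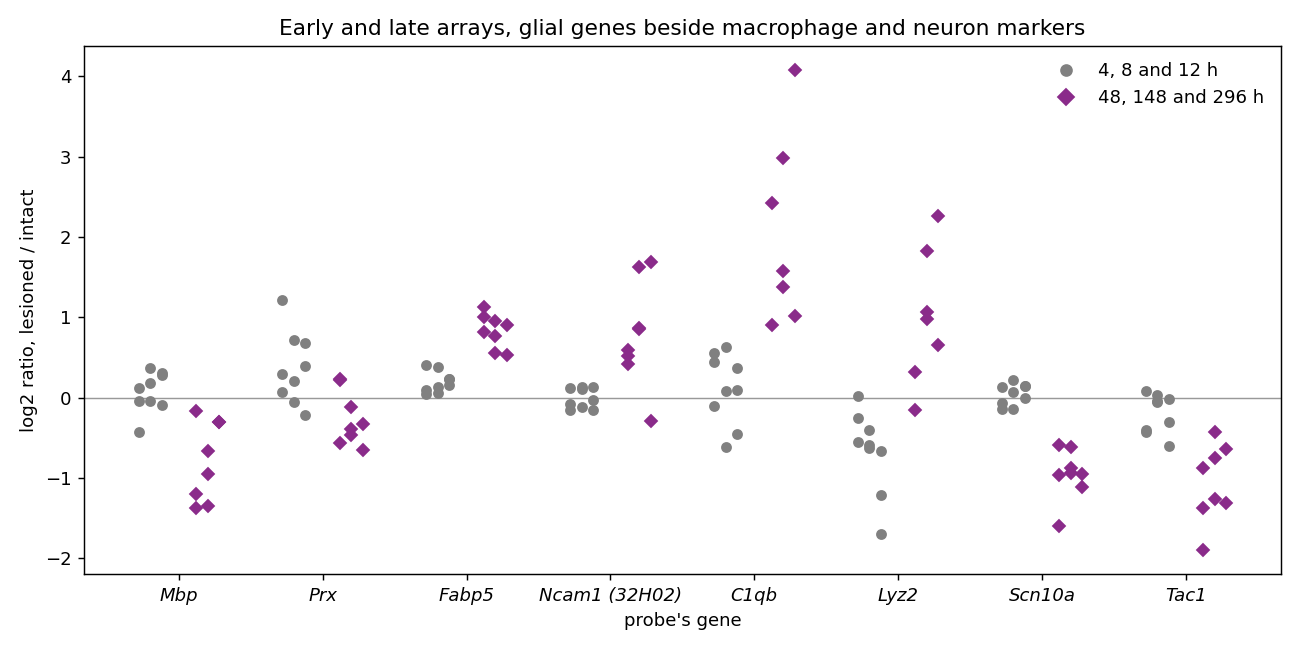
Log2 ratio of lesioned over intact ganglia (vertical axis) on the early arrays (4, 8 and 12 h) and late arrays (48, 148 and 296 h) for Mbp and Prx and for Fabp5, Ncam1, macrophage genes (C1qb, Lyz2) and neuron genes (Scn10a, Tac1), a point per array. Mbp ran from -0.43 to 0.37 early and from -1.37 to -0.17 late, and the ranges overlap.

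Averaged over all 8 times, 6 of 7 members differed from 0, 3 up and 3 down, but so did 43.3% of all probes, and a dye effect of a probe would add to this value. The positive means were those of Mal (0.65 ± 0.14, adjusted p = 0.00149), Sox10 (0.52 ± 0.10, adjusted p = 0.000318) and Cnp (0.27 ± 0.08, adjusted p = 0.0105). The negative ones were those of Fabp7 (-0.45 ± 0.13, adjusted p = 0.0101), Glul (-0.31 ± 0.10, adjusted p = 0.0188) and Mbp (-0.28 ± 0.07, adjusted p = 0.00393). Prx, with 0.12 ± 0.07, was not called (adjusted p = 0.166). Lesion and dye cannot be told apart in these means.

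The members did not move as 1 group over the arrays. Among their 28 pairs Spearman's rho ran from -0.63, between Sox10 and Glul, to 0.70, between Cnp and Sox10, with a median of -0.01 and 14 pairs above 0. These and the next values are descriptions over arrays that share platform, dyes and spread. The genes most like Prx were Pmp22 (rho = 0.80 over 22 arrays), the cartilage collagen Col2a1 (0.79) and Ywhag (0.77), where the 99th percentile over all 4403 probes compared was 0.60. Mbp was most like Mt3, a metallothionein of neural tissue (0.82), Prl2a1 (0.81) and Arf5 (0.80), each over 23 arrays. Sox10 was most like Gucy1a2 (0.75), Arhgef1 (0.73) and Kif11 (0.73), and Cnp like Scgb1a1 (0.78), Cyp2c11 (0.70) and Sox10 (0.70). For Mal they were Clcn4 (0.84), Agtr1b (0.75) and Cubn (0.75), and for Gjb1 Lig1 (0.70), Celf2 (0.69) and Nedd4 (0.68). For Fabp7 they were Dab2 (0.75), Abcc3 (0.71) and Septin5 (0.66), and for Glul Akap6 (0.76), Kcnab2 (0.76) and Hsp90ab1 (0.75). Apart from Pmp22 and Sox10, none of these genes stands in the glial lists.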

How the data were processed

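The authors hybridised lesioned (Cy5) and intact (Cy3) ganglion RNA, labelled with 3DNA dendrimers, to spotted oligonucleotide arrays and deposited 1 linear ratio per probe and array. The direction of that ratio is not stated and was taken as Cy5 over Cy3. Background correction and normalization are not given in the sources used here. Spot brightness was not used here, and per the labels the raw data could not be located. Of 5088 probes, 4423 carry 1 gene symbol, 2 several and 663 none. Log2 ratios were fitted with limma 3.58.1 under R 4.3.3, using 1 mean per time, array weights and Benjamini-Hochberg adjustment at 0.05. Single times needed 2 arrays, and the joined tests (2327 probes) 2 at every time. The procedure was tested on simulated data with independent noise scaled by the array weights. These held no dye effect and no bias of the sparse arrays, so that the test cannot speak to either. Members, gene lists and tests were chosen with earlier results of these data known. Besides the members, the rule names up to 4 genes of a list called late against early, up to 2 called from 24 h on, and the 3 closest genes by Spearman's rho over at least 15 arrays. Pmp22, Pllp, Ugt8, Mag, Cd81, Hes1, Ptgds, Entpd2, Ccl2 and Clu were named after their values were seen. Promoters are from RefSeq (GRCr8). Alternatives covered weights, scaling, filters, blocks and omitted arrays.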

Additional observations from a re-analysis of the deposited data

Results flagged for a closer look

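The late minus early difference of Mbp, -0.93 on the log2 scale, was the only member result marked for another look, because the effect of the lesion differed between late and early times by a test of the difference itself (limma, adjusted p = 0.00445). All 8 late arrays lay below 0, and so did 4 of the 9 early ones. Of those late arrays 6 were sparse, and no early array was.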

How the results depend on the processing

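The difference of Mbp kept its sign in all 39 alternatives (-1.48 to -0.57) and passed in 32. It was lost with arrays scaled to an equal spread (-0.71, adjusted p = 0.167), on full arrays, with the array class as a block (-0.68, adjusted p = 0.553), without replicate 2 throughout (-0.81, adjusted p = 0.182), without replicate 2 of 296 h, and with 48 h (-0.57) or 296 h (-1.48) in place of the late mean. Single times gave 5 member calls as reported, 2 with scaled arrays (both among the 5), 1 with the class block (Sox10 at 48 h, so that 0 of the 5 were kept), 0 from the arrays of that time alone, and 0 to 6 with arrays left out (0 to 5 of them kept). Equal weights kept 1 of the 5, Mal, and made 4 others. Late against early, the 1 call became 2 with equal weights, class weights, probes on every array of a time or a replicate block. It became 0 with scaling, full arrays, the class block or a single late time, and 0 to 2 with arrays left out. The 1 call of change between times became 2 with equal weights, 0 with scaling, full arrays, probes on at least 1 array, the replicate block, averaged probes or the class block, and 0 to 2 with arrays left out. Means over times gave 6 calls as reported, 2 on full arrays (Sox10, kept, and Gjb1, another), 2 with the class block (Mal and Mbp, both kept), and 2 to 6 with arrays left out. Over all probes, the alternatives gave 0 to 283 calls late against early (179 as reported), 0 to 118 of change (47), 471 to 1141 of the mean (1008), 0 to 145 at 4 h (132), 0 to 111 at 8 h (98), 1 to 128 at 12 h (119), 3 to 78 at 18 h (66), 3 to 301 at 24 h (257), 0 to 706 at 48 h (268), 0 to 931 at 148 h (343) and 0 to 264 at 296 h (8).

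Signs turned late against early only where the value was not called. Mal turned with scaling (-0.11), on full arrays (-0.48) and at 48 h alone (-0.56), and Cnp with the class block (0.040). Sox10 turned with equal weights (-0.044), scaling (-0.47), the replicate block (-0.003002), without replicate 1 (-0.19), without replicate 1 of 48 h (-0.18) and at 296 h alone (-0.27), and ran from -0.19 to 0.19 over all omissions. Fabp7 turned with equal weights (0.013), scaling (0.38), without replicate 3 (0.052), without replicate 1 of 48 h (0.031), replicate 3 of 148 h (0.018) or replicate 2 of 296 h (0.015), and at 48 h alone (0.38), and ran from -0.32 to 0.052 over all omissions. Glul turned with scaling (0.15) and without replicate 1 (0.10), from -0.27 to 0.10. The cause was not tested.

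Replicate numbers did not pair the arrays: same-numbered arrays of different times had a median correlation of deviations of -0.0046 over 77 pairs, and 6 of 23 arrays correlated best with their own number. With the replicate block Prx passed late against early (-0.60, adjusted p = 0.0477). The ratios carry no intensities, so what dim spots limit is unknown.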
